A study of Rattus norvegicus with 138 samples.

Results

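Injured tibialis anterior (TA) muscle of the rat was compared between 28 and 14 days after volumetric muscle loss (VML), the surgical removal of a block of muscle too large for the tissue to rebuild. The comparison used the injured muscles of rats that did not run, with and without a graft, which came to 16 of the series' 114 placed muscles, 8 at 28 days and 8 at 14 days, with 1 library each. All rats were Lewis rats, male and about 4 months old per the study's methods, and a 6 mm biopsy punch removed tissue from the middle of the TA of 1 leg. On each day 4 of the muscles were left without repair, and the other 4 received an autologous minced muscle graft (MMG), which is the rat's own excised muscle cut into small pieces and put back into the defect. The muscle of the uninjured leg, called contralateral here, was sequenced in 4 of the rats of each day.

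Total RNA came from muscle homogenate, so each library mixed the scar, the remaining fibers, vessels, nerve and leukocytes. Levels are in TPM, the share of a library's transcripts that a gene takes once its length is allowed for. The values carry no read counts, and the study's methods give an average depth but not that of each library. The number of genes above 1 TPM was therefore used to describe how complex a library was. It ran from 9899 to 10525 at 28 days (median 10082) and from 10140 to 10598 at 14 days (median 10339.5). The Pearson correlation of log2 TPM between muscles was 0.977 to 0.994 within 28 days, 0.983 to 0.994 within 14 days and 0.951 to 0.989 across the days. Ribosomal RNA took 0.107% to 0.964% of TPM at 28 days and 0.0846% to 0.259% at 14 days. Among the muscles of 28 days the graft muscle of replicate 2 had both the most genes above 1 TPM and the highest ribosomal share. The rats of 28 days carry numbers 73 to 84 and those of 14 days come from a later range of numbers, with no rat on both days, so that the day and the range of rat numbers cannot be told apart.

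After a muscle injury, macrophages clear debris, satellite cells proliferate and fuse into new fibers that first make embryonic and neonatal myosins, and mesenchymal cells named fibroadipogenic progenitors lay down a provisional matrix. In a small injury this matrix is remodeled and the fibers mature, whereas after VML a collagen-rich scar remains.

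At 28 days the injured muscle held less RNA of the provisional matrix, of collagen crosslinking enzymes, of embryonic sarcomere proteins, of dividing cells and of several imprinted growth genes than at 14 days. Fewer genes were higher at 28 days, and these included the glutathione transferase gene Gsta1, the gelsolin gene Gsn, and members of the adipocyte and circadian clock lists. Of 10560 genes tested with limma on log2(TPM + 1), with repair as a covariate, 1037 genes (9.82% of those tested) rose and 1631 genes (15.4%) fell at an adjusted p under 0.05. The adjustment was that of Benjamini and Hochberg, and log2 fold changes are given as 28 minus 14 days on the log2(TPM + 1) scale, which understates the change of genes near 1 TPM. Most changes were small. A gene with a log2 fold change beyond 1 in addition is called here, and 28 genes (0.265% of those tested) were called higher and 0.975% lower. With a pseudocount of 0.1 TPM in place of 1 TPM, 46 genes were called higher and 215 lower. The 8 muscles of one day lay wholly above the 8 of the other in 245 genes that were higher (2.32%) and 182 genes that were lower (1.72%). Over all tested genes the median log2 fold change was -0.03. Without the graft muscle of replicate 2 at 28 days 1123 genes rose and 2565 fell, and without that of replicate 1 the genes called lower numbered 66. With the number of genes above 1 TPM as a further covariate, 35 genes were called higher and 18 lower, and 2133 genes passed higher and 747 lower, so the predominance of lower genes depends on whether library complexity, which itself differed between the days, enters the model. With size factors by the median of ratios in place of TPM as deposited 1905 genes rose and 2040 fell, so it depends on the scaling as well.

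Levels of cell type markers moved with these genes, and in a bulk sample fewer cells of a type and less RNA per cell cannot be told apart. The summed level of 3 fibroblast markers (Pdgfra, Col1a1, Dcn) was 1057 to 2039 TPM at 28 days, with a median of 1296, and 1883 to 3958 TPM at 14 days, with a median of 2054. Most of that difference was Col1a1, itself one of the matrix genes described here, while Dcn did not pass and Pdgfra fell by 0.37 on the log2 scale, so the sum is no separate measure of fibroblasts. Macrophage markers (Cd68, Csf1r, C1qa, Adgre1) summed to 102.4 to 205 TPM (median 127.3) against 162 to 266 TPM (median 188), and the 3 T cell markers to 2.33 to 5.47 TPM (median 3.1) against 4.98 to 10.7 TPM (median 5.76). The tendon markers Scx and Tnmd summed to 48.2 to 130 TPM (median 66.3) against 93.6 to 265 TPM (median 124.5), of which Tnmd had medians of 31.9 and 83.2 TPM, and its log2 fold change of -1.53 became -0.78 with an adjusted p of 0.13 with library complexity in the model. Adipocyte markers went the other way, with 7.39 to 23.7 TPM (median 10.7) against 1.22 to 9.6 TPM (median 1.49), although Lep, which encodes the adipocyte hormone leptin, stayed below 1 TPM in all 16 muscles. Adult fiber markers, of which 4 of 5 have values, overlapped between the days with medians of 97800 and 88610 TPM, and keratinocyte markers stayed below 1 TPM. The part of these cell types in the results that follow was not tested.

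The count of each gene list is to be read against all genes tested, of which 15.4% fell and 9.82% rose. Of 9 fibrillar collagen genes tested 8 fell, as did 20 of 22 genes for collagen processing enzymes, 11 of 17 matricellular genes and 13 of 16 elastic fiber genes, and none of these 4 lists had a member that rose. Their median log2 fold changes were -1.09, -0.62, -0.96 and -0.59. Basement membrane genes had 10 of 13 lower, but only 13 of the 22 genes on that list have values.

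The tenascins, matricellular proteins that are made in wounds and in embryonic connective tissue, had the largest falls of these lists. Tnc, which encodes tenascin C, was at 1.52 to 22 TPM at 28 days (median 13.6) and at 36.4 to 103.2 TPM at 14 days (median 48.8). Tnn, the gene of tenascin N, was at 0.22 to 8.87 TPM (median 2.83) and 11.1 to 42.2 TPM (median 22.1). In neither gene did the days overlap, and the log2 fold changes were -2.48 (SE 0.41, adjusted p = 0.00065) and -2.59 (SE 0.40, adjusted p = 0.00046). In the 8 contralateral muscles of these days Tnc did not exceed 0.76 TPM and Tnn did not exceed 0.05 TPM.

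Cthrc1, which encodes a collagen-associated protein secreted by activated fibroblasts, ranged from 7.26 to 72.7 TPM at 28 days (median 32.6) and from 95.7 to 300.4 TPM at 14 days (median 116). The days did not overlap, and 1 muscle of 14 days, the graft muscle of replicate 2, stood well above the rest. The log2 fold change was -2.15 (SE 0.41, adjusted p = 0.0016). Postn, the gene of periostin, a matrix protein that promotes collagen fibril assembly, was at 61.8 to 702 TPM (median 348) against 655 to 2133 TPM (median 997), with an overlap of the days (log2 fold change -1.92, adjusted p = 0.0033). Lrrc15 (-1.80), a membrane protein of activated fibroblasts, Thbs2 (-1.49), a thrombospondin, and the proteoglycan genes Aspn (-1.59) and Lum (-1.45) also fell without overlap. Bgn, the gene of the proteoglycan biglycan, fell as well (-1.001, adjusted p = 0.0021, no overlap), and of the 10 leucine-rich proteoglycan genes tested 4 fell and 1, Omd, rose. Dcn, the gene of decorin, had a median of 576 TPM at 28 days and 616 TPM at 14 days (log2 fold change -0.14, adjusted p = 0.38), and Prelp, another member of that list, had a log2 fold change of 0.06 (adjusted p = 0.80), or of 0.38 (adjusted p = 0.038) with library complexity in the model.

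The fibrillar collagens fell across almost the whole list. Col1a1, which encodes the main chain of type I collagen, was at 454 to 1192 TPM at 28 days (median 721) and at 1256 to 3026 TPM at 14 days (median 1457), without overlap. Its log2 fold change was -1.13 (SE 0.21, adjusted p = 0.0015). The other fibrillar genes that fell were Col5a3 (-1.42), Col11a1 (-1.21), Col5a1 (-1.16), Col5a2 (-1.09), Col1a2 (-1.03), Col3a1 (-0.99) and Col27a1 (-0.60). Among the enzymes that modify and crosslink collagen, P4ha3, a prolyl hydroxylase subunit, had a log2 fold change of -1.52, Lox, the lysyl oxidase, of -1.18, Fkbp10, a collagen chaperone of the endoplasmic reticulum, of -1.11, and Loxl1, a lysyl oxidase of elastic fibers, of -1.10. Fbn2, the fibrillin of developing tissue, dropped from 2.44 to 7.78 TPM at 14 days (median 3.62) to 0.12 to 1.62 TPM at 28 days (median 0.805), whereas the fibrillin gene of adult tissue, Fbn1, fell by 0.64 on the log2 scale.

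Genes of proteases that cut matrix fell as well. Mmp14, the membrane-bound collagenase that activates other metalloproteinases, was at 29.7 to 92.3 TPM at 28 days (median 61.5) and at 128.6 to 316 TPM at 14 days (median 163), with no overlap (log2 fold change -1.49, adjusted p = 0.00028). Mmp2, a gelatinase, had a log2 fold change of -0.85, and Plat, the tissue plasminogen activator, of -0.82 (adjusted p = 3.5e-05). Of 25 metalloproteinase and inhibitor genes tested 14 fell and 1 rose, the inhibitor gene Timp4 (0.49, adjusted p = 0.023), whose change did not pass with library complexity in the model (0.31, adjusted p = 0.16). Of 36 genes of TGF-beta and BMP signaling 8 fell and 4 rose, with a median of -0.03, near the 15.4% and 9.82% of all genes. Tgfb1, the gene of the fibrogenic cytokine itself, was not among them, at 18.7 to 41.1 TPM against 24.7 to 37.5 TPM (log2 fold change -0.28, adjusted p = 0.11). Without 1 graft muscle of 28 days (replicate 2) its log2 fold change was -0.38 with an adjusted p of 0.0056. Acta2, the actin of smooth muscle and myofibroblasts, overlapped between the days (medians 88.4 and 94.3 TPM, adjusted p = 0.37).

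**Figure D1:**
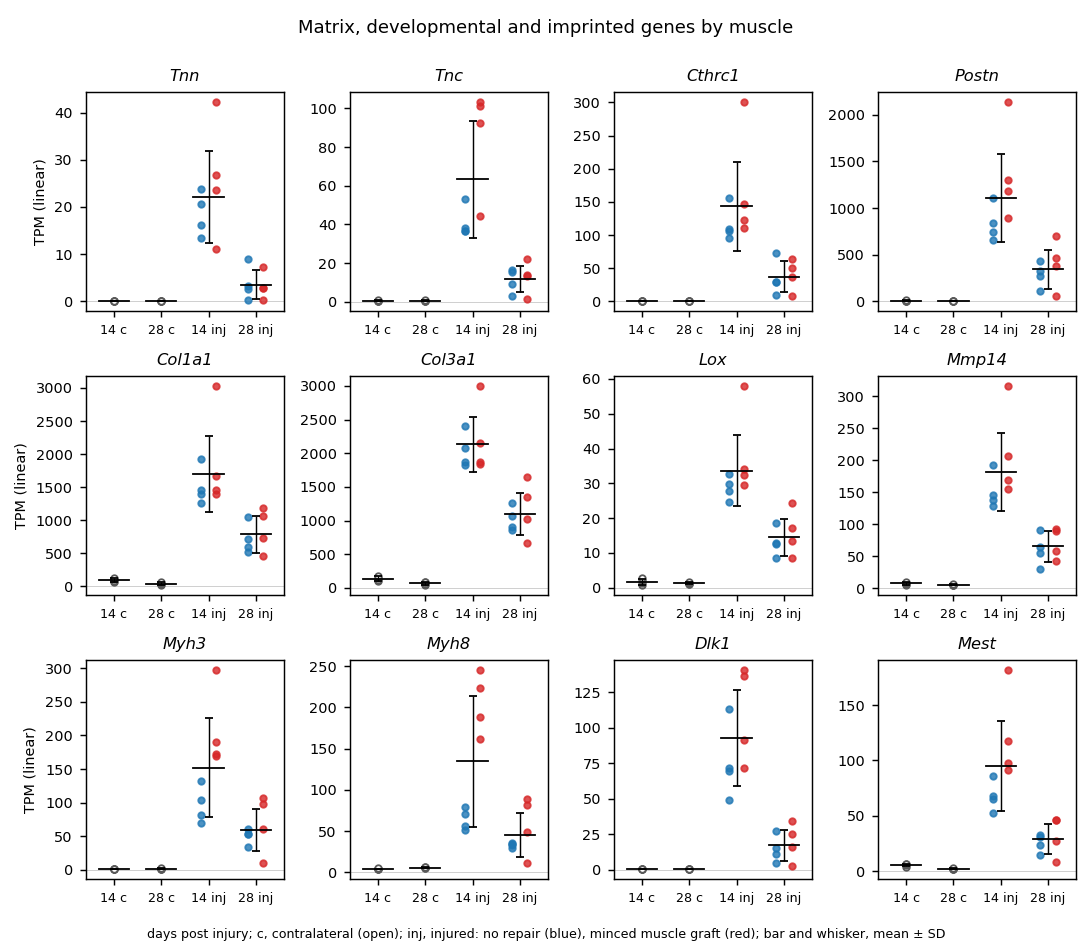
Levels in TPM (linear axes from 0) of matrix, embryonic sarcomere and imprinted genes in each contralateral (c, open circles) and injured muscle (inj, blue no repair, red minced muscle graft) at 14 and 28 days, with bars for the mean and whiskers for the SD. In Tnc, Tnn and Dlk1 the 8 injured muscles of 28 days lie below all 8 of 14 days, and contralateral muscles lie near 0.

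Most sarcomere genes of embryonic and neonatal fibers on the list fell, while the main transcription factors of myogenesis did not pass the test. Of 10 genes on the developmental sarcomere list 6 fell and 1 rose, with a median of -0.71, against 15.4% lower and 9.82% higher over all genes. The gene that rose, Myh14, encodes a nonmuscle myosin heavy chain and is no sarcomere gene. Myh8, the neonatal myosin heavy chain, was at 11.6 to 89 TPM at 28 days (median 35.1) and at 51.5 to 245 TPM at 14 days (median 121). Myh3, the embryonic heavy chain, was at 10.3 to 106.8 TPM (median 57) and 70.2 to 297 TPM (median 151). The days overlapped in both genes, since some muscles of 28 days still had neonatal and embryonic myosin at the level of the lowest muscles of 14 days. Their log2 fold changes were -1.52 (adjusted p = 0.0040) and -1.44 (adjusted p = 0.011), and that of Myh3 was -0.65 with an adjusted p of 0.12 when library complexity was in the model. Nes, which encodes nestin, an intermediate filament of young fibers, had a log2 fold change of -1.12, and Actc1, the cardiac actin that young skeletal fibers share, of -1.17. In contralateral muscle Actc1 had a log2 fold change of -0.98 (adjusted p = 0.060). Its difference between the legs was -0.19 (adjusted p = 0.84). Csrp2, the gene of a LIM protein of differentiating muscle and mesenchymal cells, fell without overlap, from 31.6 to 92.3 TPM (median 38.2) to 9.23 to 24.8 TPM (median 15.5).

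Of 12 myogenic regulators and fusion genes 4 fell and none rose (15.4% and 9.82% over all genes), namely Tmem8c, the fusion protein myomaker (-0.82), Megf10, a receptor of satellite cells (-0.67), Cdh15, the muscle cadherin (-0.53), and Msc, a repressor of myogenesis (-0.52). Myog, the factor that starts terminal differentiation, was at 86 to 354 TPM at 28 days (median 118) and at 96.6 to 193 TPM at 14 days (median 132.3). The log2 fold change was -0.03 (SE 0.24, adjusted p = 0.94). Pax7, the marker of satellite cells, had medians of 2.45 and 3.6 TPM (log2 fold change -0.32, adjusted p = 0.11), and without the graft muscle of replicate 2 at 28 days it was -0.44 with an adjusted p of 0.0025. With size factors by the median of ratios over all 16 muscles it was -0.28 (adjusted p = 0.046). Sln, which encodes the calcium pump inhibitor sarcolipin, and Ankrd1, a stress-induced ankyrin repeat protein, did not pass the test, with medians of 3004 and 3023 TPM for Sln and of 431 and 586 TPM for Ankrd1. Of 17 junction and denervation genes only the fetal acetylcholine receptor subunit Chrng (-1.10) and the subunit gene Chrnd (-0.94) fell, a share near the 15.4% of all genes, and Chrng did not pass with library complexity in the model (-0.64, adjusted p = 0.13). Mstn, the inhibitor of muscle growth, had medians of 15.1 and 8.8 TPM with a log2 fold change of 0.49 (adjusted p = 0.070), which was 0.63 with an adjusted p of 0.0066 without the graft muscle of replicate 2 at 28 days. Of 21 fast fiber genes 1 rose (Tcap, 0.84) and 1 fell (Casq1, -0.32), and of 13 slow fiber genes 2 fell, Casq2, a calcium store protein (-0.93), and Hspb6, a small heat shock protein (-0.66).

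Dlk1 and Mest, which were among the genes that fell furthest, are imprinted, that is, expressed from the allele of 1 parent, and many imprinted genes act in fetal growth. A list of 30 imprinted genes was therefore drawn up after these values had been seen, and its counts are a description only. Of the 24 that have values 20 were tested, 11 were lower, 1 was higher (Slc38a4, 0.29) and the median was -0.36. In a model of all muscles of the series Slc38a4 and H19 did not pass (adjusted p = 0.072 and 0.12). Dlk1, which encodes a Notch-related membrane protein of fetal tissue and regenerating muscle, was at 2.54 to 34.5 TPM at 28 days (median 15.6) and at 48.9 to 140.5 TPM at 14 days (median 81.5). Every muscle of 28 days lay below every muscle of 14 days, and the log2 fold change of -2.63 (SE 0.41, adjusted p = 0.00045) was the most negative of all genes tested. Mest, an enzyme-like protein of mesoderm, was at 8.21 to 46.6 TPM (median 29.5) against 52.9 to 181 TPM (median 88.8), and Plagl1, a zinc finger regulator of growth genes, at 2.99 to 9.27 TPM (median 6.41) against 10.7 to 29.6 TPM (median 14.4). Igf2, the fetal insulin-like growth factor, was at 98.6 to 232 TPM (median 182) against 292 to 436 TPM (median 340). These genes did not overlap between the days, and the same held for Ndn (-0.92, adjusted p = 7.0e-06), which encodes necdin, and for H19 (-0.45, adjusted p = 0.0012), the noncoding RNA that neighbors Igf2. Peg3, Cdkn1c, Grb10, Sgce and Peg12 fell with overlap. In contralateral muscle Cdkn1c (-1.11, adjusted p = 0.0083) and Mest (-1.01, adjusted p = 0.0027) fell too, with a leg difference of -0.74 for Mest (adjusted p = 0.38), and H19 had a log2 fold change of -0.52 (adjusted p = 0.095). The other 8 tested members, among them Nnat, Igf2r, Gnas and Impact, did not pass.

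**Figure D2:**
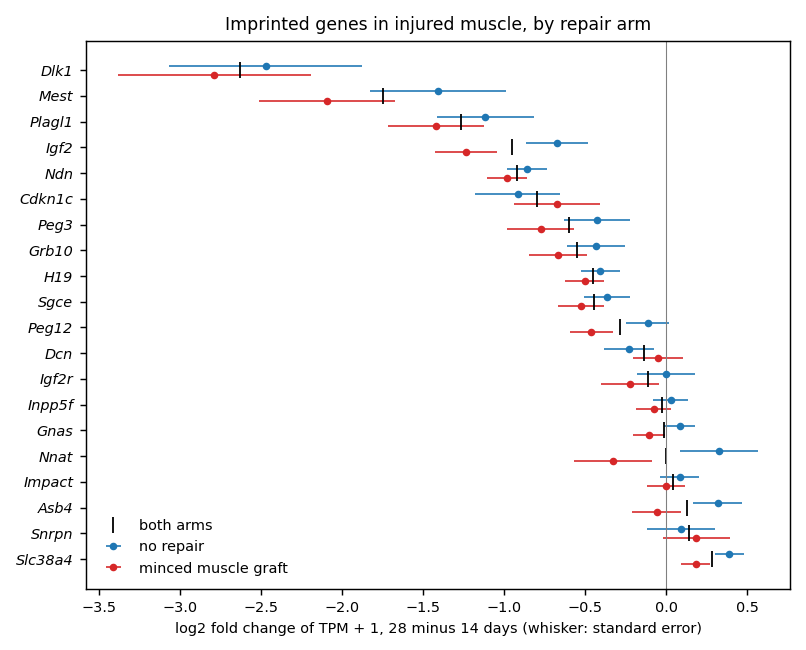
Log2 fold change of TPM + 1 (28 minus 14 days, horizontal axis) of each tested gene of the imprinted list in injured muscle. Points show muscles without repair (blue) and with the minced muscle graft (red), with whiskers for the SE, and black ticks show both arms together. Of 20 genes 11 fell in injured muscle, with Dlk1 at -2.63 and Mest at -1.75 farthest to the left, and the list was chosen after the values were seen.

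Dlk1 opens an imprinted region on chromosome 6 that ends at Dio3 and holds a long row of microRNA genes, which are expressed from the allele that does not express Dlk1. The table has an entry for 58 of the 59 microRNA genes that RefSeq places there in the GRCr8 build, and 21 of these passed the filter on low values. The values are TPM of hairpin entries in a library made for long RNA, so they are not levels of the mature microRNA. Many of these 21 are near 1 TPM and passed the filter through 14 days alone, where they had to be higher, so no count over them is read as a result. Entries are given here only where the mean was above 1 TPM on both days and the adjusted p under 0.05, and they were chosen after their values were seen. The entry of Mir770 was at 3.14 to 23.8 TPM at 28 days (median 11.9) and at 15.4 to 54.9 TPM at 14 days (median 31.7), with a log2 fold change of -1.42 (adjusted p = 0.0016). Mir377 was at 0 to 3.25 TPM (median 0.955) and 1.5 to 7.34 TPM (median 4.325), with a log2 fold change of -1.30 (adjusted p = 0.026). Mir431 was at 0 to 7.63 TPM with a median of 0 at 28 days, so that few muscles carried its mean, and at 0 to 16.4 TPM (median 3.845) at 14 days (log2 fold change -1.63, adjusted p = 0.0097). All 3 overlapped between the days. The mature microRNAs that RefSeq annotates for these 3 genes are printed 5′ to 3′ with the seed, bases 2 to 8, in capitals, because the seed sets which transcripts a microRNA can pair with. The 5 sequences have 5 different seeds.
rno-miR-770-5p: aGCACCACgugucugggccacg
rno-miR-770-3p: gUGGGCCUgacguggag
rno-miR-431: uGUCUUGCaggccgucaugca
rno-miR-377-5p: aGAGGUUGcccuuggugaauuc
rno-miR-377-3p: uGAAUCACacaaaggcaacuuuu

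Genes of dividing cells fell by small amounts but in large numbers. Of 36 cell cycle genes 27 fell and 1, Aurka, rose (0.43), with a median of -0.51, against 15.4% lower and 9.82% higher over all genes. Cdk1, the kinase that drives entry into mitosis, was at 1.12 to 3.97 TPM at 28 days (median 2.4) and at 5.04 to 7.1 TPM at 14 days (median 6.43), without overlap (log2 fold change -1.05, adjusted p = 0.00031). Cdk1 also fell in contralateral muscle (-0.71, adjusted p = 0.036), with a difference between the legs of -0.34 (adjusted p = 0.50). Mki67, the common marker of proliferation, had medians of 0.935 and 2.26 TPM (-0.65, adjusted p = 0.0012), and Top2a, the topoisomerase of dividing cells, of 0.87 and 2.65 TPM (-0.84, adjusted p = 0.00031). Knstrn, a spindle protein, lay between 0.59 and 1.06 TPM at 28 days and between 1.87 and 2.61 TPM at 14 days. Its adjusted p of 6.1e-06 was the lowest of the list, at a level near 1 TPM. Knstrn, which is among the 27, passed the filter on low values through 14 days alone, where it had to be higher. Its rank is therefore not read as a result.

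Lists of leukocyte genes had members that fell. Of the 19 macrophage genes tested 11 fell, and 10 of 14 genes of antigen presentation by MHC class II, 12 of 22 T and NK cell genes, 7 of 12 mast cell genes and 9 of 29 chemokine and receptor genes fell too, against 15.4% of all genes. The list of lipid-associated macrophages had 4 of 21 lower, near that share, and the complement list 8 of 24 lower and 2 higher. Foxp3, which marks regulatory T cells, rose (0.52), as did the chemokine gene Cxcl14 (0.47). Ccl2, which recruits monocytes, was at 3.65 to 7.71 TPM at 28 days (median 4.79) and at 8.15 to 18.9 TPM at 14 days (median 14.5). Its log2 fold change was -1.27 (adjusted p = 0.00014) with no overlap, and Ccl7, a related chemokine, fell with overlap (-1.16). Ccl2 also fell in contralateral muscle (-0.58, adjusted p = 0.022), with a difference between the legs of -0.69 (adjusted p = 0.17). Il1rl1, the receptor of interleukin 33, dropped from 2.72 to 8.31 TPM (median 4.26) to 0.73 to 1.77 TPM (median 1.07), again without overlap. C1qa (-0.56), Csf1r (-0.43), Cd74 (-0.49) and Cd3e (-0.39) fell with overlap, and the last 3 did not pass with library complexity in the model, with adjusted p of 0.096, 0.14 and 0.16. Cd68, a marker of macrophage lysosomes, had medians of 20 and 31.9 TPM and an adjusted p of 0.18. It passed only without the unrepaired muscle of replicate 4 at 28 days (-0.69, adjusted p = 0.0073). Spp1, the gene of osteopontin, had medians of 15.2 and 18.9 TPM (adjusted p = 0.60). None of 29 interferon response genes passed in either direction.

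**Figure D3:**
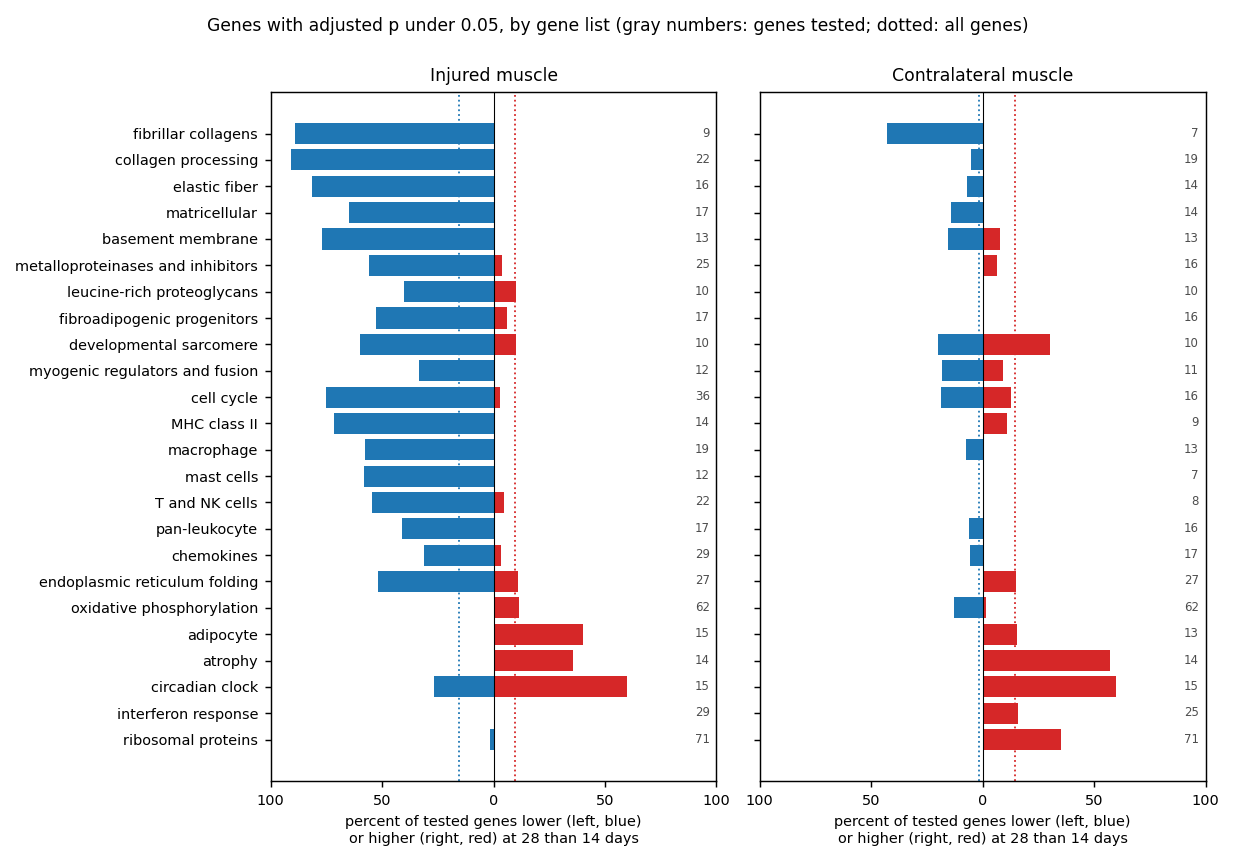
Percent of the tested genes of each list that were lower (blue, to the left) or higher (red, to the right) at 28 than at 14 days with an adjusted p under 0.05, in injured and in contralateral muscle, with the number tested in gray and dotted lines for the percent over all genes. In injured muscle 8 of 9 fibrillar collagen genes and 20 of 22 collagen processing genes are lower, and 9 of 15 circadian clock genes are higher in both panels.

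Gsta1, a glutathione transferase, was at 107.9 to 190.1 TPM at 28 days (median 138.9) and at 44.3 to 60.6 TPM at 14 days (median 52.1). The lowest muscle of 28 days lay well above the highest of 14 days, and the log2 fold change was 1.41 (SE 0.10, adjusted p = 5.1e-07). Gstm2 was at 334 to 587 TPM (median 374) against 165 to 214 TPM (median 182), and Gstm7 at 55.6 to 66.5 TPM (median 59) against 30.5 to 44.1 TPM (median 35.2). Glutathione transferases of one class are close in sequence, so reads can be shared among their members. Fmo2, a flavin monooxygenase, was at 8.83 to 10.6 TPM (median 9.74) against 3.22 to 5.28 TPM (median 3.63), a log2 fold change of 1.15 (SE 0.08, adjusted p = 5.6e-07). Of 17 tested genes with glutathione transferase symbols of the Gst kind 6 rose and none fell, with a median of 0.25, a grouping made after values had been seen. All 4 genes also rose in contralateral muscle, by 0.39 on the log2 scale for Gsta1 (adjusted p = 0.0076), 0.64 for Gstm2 (adjusted p = 0.0046), 0.38 for Gstm7 (adjusted p = 0.012) and 0.67 for Fmo2 (adjusted p = 0.0066). The difference between the legs passed for Gsta1, and its adjusted p was 0.16 for Gstm2, 0.10 for Gstm7 and 0.092 for Fmo2. With the rat as a fixed replicate block in limma, Gsta1 did not pass (adjusted p = 0.0758).

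Gsn, the gene of gelsolin, an actin-severing protein that fibroadipogenic progenitors make in quantity, rose from 350 to 516 TPM (median 414) to 768 to 1226 TPM (median 869). Gsn was the only one of 17 tested fibroadipogenic genes that rose, while 9 fell (9.82% and 15.4% over all genes), among them Thy1 (-1.16) and Pdgfra (-0.37), which did not pass in a model of all muscles of the series (adjusted p = 0.055). Calml3, a calmodulin-like protein known from epithelia, had the highest log2 fold change of all genes tested, 2.63 (SE 0.34, adjusted p = 0.00010). It was at 3.34 to 37.5 TPM at 28 days (median 7.83) and at 0.38 to 1.33 TPM at 14 days (median 0.67), with the lowest muscle of 28 days above the highest of 14 days. Over the 8 muscles of 14 days its mean was 0.78 TPM, under the filter's limit of 1 TPM, which it passed at 28 days. Anxa8, an annexin also known from epithelia, was at 3.24 to 17.6 TPM (median 5.46) against 0.49 to 1.45 TPM (median 0.90). The keratinocyte genes Krt5 and Krt14 summed to at most 0.08 TPM at 28 days. Prima1, the membrane anchor of acetylcholinesterase, was at 7.83 to 25.7 TPM (median 12.9) against 2.29 to 5.19 TPM (median 3.34), and Sncg, a synuclein of peripheral neurons and adipocytes, at 52.7 to 204 TPM (median 73.7) against 20.8 to 41.2 TPM (median 29.8). Cntfr, the receptor of ciliary neurotrophic factor, rose as well (1.21, adjusted p = 0.0011).

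Of 15 adipocyte genes tested 6 rose and none fell, with a median of 0.17, against 9.82% and 15.4% over all genes. Adipoq, the gene of the adipocyte hormone adiponectin, was at 5.46 to 17 TPM at 28 days (median 8.66) and at 0.78 to 7.52 TPM at 14 days (median 1.03). The days overlapped because 1 unrepaired muscle of 14 days reached 7.52 TPM (log2 fold change 1.88, adjusted p = 0.00050). Plin1, a coat protein of lipid droplets (1.14), Retn, the hormone resistin (1.30), and Cidec, which enlarges lipid droplets (0.85), rose too. Dgat2, which makes triglyceride and is also active in muscle fibers, rose without overlap, from 9.73 to 13.8 TPM (median 11.8) to 21.2 to 25.3 TPM (median 23). Pparg, Fabp4, Lpl and Cd36 did not pass.

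Of 15 circadian clock genes tested 9 rose and 4 fell, against 9.82% and 15.4% over all genes. Those that fell were the activators Arntl, Clock and Npas2 and the repressor Nfil3. Ciart, a repressor of the clock that follows the time of day, was at 3.81 to 8.41 TPM at 28 days (median 4.92) and at 0.60 to 2.25 TPM at 14 days (median 1.26), without overlap (log2 fold change 1.48, adjusted p = 3.5e-05). The output factor Dbp was at 124.7 to 189 TPM (median 157) against 43.5 to 102.6 TPM (median 80.7), and the repressor genes Per1 (1.28), Per2 (0.95) and Per3 (0.80) rose with it. Among the activators, Npas2 was at 0.75 to 1.82 TPM (median 1.36) against 2.14 to 6.17 TPM (median 4.17), and Arntl had a log2 fold change of -0.90. The same 9 genes also rose in contralateral muscle, and none of the list fell there. Ciart was there at 6.33 to 12.8 TPM at 28 days and at 0.22 to 4.26 TPM at 14 days (log2 fold change 2.18, adjusted p = 0.011), and the log2 fold changes of Per1, Per2 and Dbp were 1.49, 1.24 and 1.72. No clock gene passed the test of a difference between the legs. The hour at which the muscles were taken is not given in the sources used here. Arrdc2, an arrestin-like gene outside the list, had a log2 fold change of 1.25 in injured and of 2.60 in contralateral muscle.

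Clock activators bind the E-box, with the letters CACGTG, and the RefSeq promoter of Ciart (GRCr8, chr2:186112197-186112496, minus strand, from 250 bases before to 50 bases after the annotated start) holds 3 of them, written in capitals. The last of them begins 21 bases before the start. This sequence is shown because Ciart had the largest clock change in both legs.
Ciart promoter: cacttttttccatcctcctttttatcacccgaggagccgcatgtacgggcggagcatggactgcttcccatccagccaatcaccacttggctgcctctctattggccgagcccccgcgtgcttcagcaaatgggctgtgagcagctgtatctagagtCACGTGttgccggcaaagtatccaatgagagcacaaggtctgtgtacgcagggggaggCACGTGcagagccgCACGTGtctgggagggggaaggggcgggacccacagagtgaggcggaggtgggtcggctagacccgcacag
The letters read the same on both strands. They occur in 2148 of 33469 RefSeq promoters of this length (6.42%), and 5 of the 15 genes that matched a promoter, of 19 on the clock list, hold them, namely Ciart, Nr1d1, Tef, Bhlhe40 and Bhlhe41. A clock gene counted if any of its promoters held the letters, whereas the 6.42% is per promoter, so these shares are not like for like. A match of letters is a description and not a binding site.

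**Figure D4:**
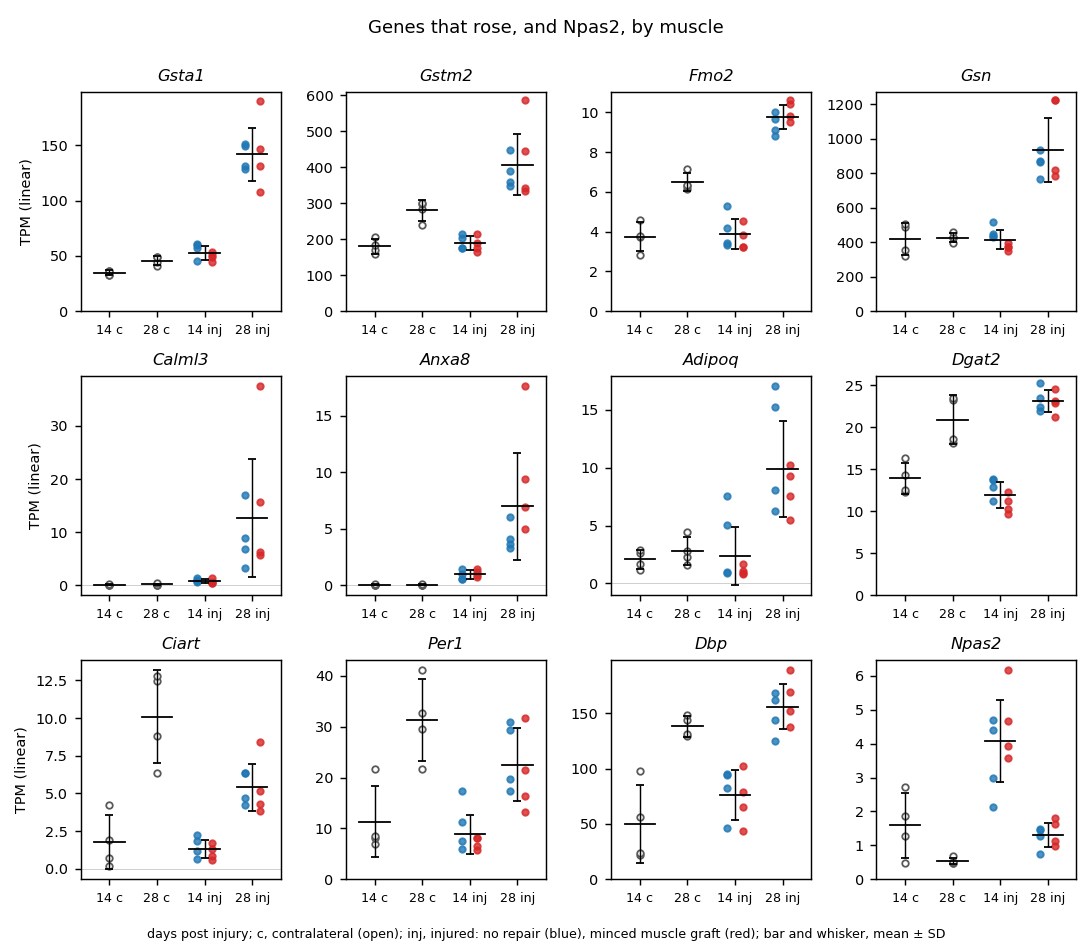
Levels in TPM (linear axes) of genes that rose, with fat storage and clock genes, and of Npas2, which fell, in each contralateral (c, open circles) and injured muscle (inj; blue no repair, red minced muscle graft) at 14 and 28 days, with bars for the mean and whiskers for the SD. For Gsta1 and Gsn the day difference is larger in injured than in contralateral muscle (by 1.02 and 1.10 on the log2 scale), whereas Ciart and Dbp are higher at 28 days in both.

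The ribosomal share of TPM moved with the day, with medians of 0.317% at 28 days and 0.110% at 14 days in injured muscle, and its part in the results was not tested. Rn5-8s, a ribosomal RNA, had a mean of 1506 TPM at 28 days and 226 TPM at 14 days (log2 fold change 2.39, adjusted p = 0.0020). Rn7sl1, the RNA of the signal recognition particle, had means of 60.9 and 12.1 TPM (2.02, adjusted p = 0.0022). Both were chosen after their values were seen, and both overlapped between the days.

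Of 62 genes of oxidative phosphorylation 7 rose and none fell, with a median of 0.09, and of 30 genes of glycolysis and glycogen 5 rose and 3 fell, against 9.82% higher and 15.4% lower over all genes tested. Fbp2, the muscle enzyme of gluconeogenesis, rose by 0.91 on the log2 scale. Glul, the glutamine synthetase gene, had medians of 467 and 246 TPM in injured muscle (log2 fold change 0.97) and of 464 and 248 TPM in contralateral muscle (0.92). Of 14 atrophy genes 5 rose in injured muscle (9.82% of all genes there) and 8 in contralateral muscle (14.5% of all genes there), with the ubiquitin ligase gene Fbxo32 at 0.74 (adjusted p = 0.033) in contralateral and at 0.17 (adjusted p = 0.42) in injured muscle, where the difference between the legs had an adjusted p of 0.24. Of 71 ribosomal protein genes 1 fell in injured muscle, and 25 rose in contralateral muscle with a median of 0.12, against 14.5% of all genes tested there.

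The contralateral muscles of 8 of these rats were compared next, to see what differed between the days without an injury. Of 9330 genes tested in 8 muscles 1351 genes (14.5%) rose and 165 genes (1.77%) fell. With size factors by the median of ratios in place of TPM as deposited, 525 rose and 372 fell, so the balance of directions rests on the scaling. Leaving out 1 muscle gave 653 to 1200 genes, with 653 without the unrepaired replicate 2 at 28 days, 843 without the unrepaired or the graft replicate 1 at 28 days, and 840 without the graft replicate 2 at 14 days. The lowest adjusted p, 0.0013, was shared by genes including Ear11, an eosinophil-type ribonuclease (1.72), Nfib, a transcription factor (0.93), and Pvalb, the calcium buffer of fast fibers (-0.52). In injured muscle Nfib had 0.26 (adjusted p = 0.087), which passed with size factors (0.31, adjusted p = 0.034) and without the graft replicate 4 at 28 days (0.33, adjusted p = 0.028), and Ear11 and Pvalb did not pass.

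Of the 1037 that rose, 1010 were tested in contralateral muscle, and 477 (47.2%) rose there and 2 fell, against 14.5% of all genes tested. Of the 1631 that fell, 1194 were tested, and 65 (5.44%) fell there and 14 rose, against 1.77%. Both legs of a rat share the animal and its day, so the legs are not independent of each other. Collagen genes were among those lower in both legs. Col3a1 was at 39.9 to 91.9 TPM at 28 days and 109 to 183 TPM at 14 days in contralateral muscle (log2 fold change -1.05, adjusted p = 0.025), and the same change in injured muscle was -0.99. For Col1a1 the contralateral log2 fold change was -1.30 (adjusted p = 0.061), and the difference between the legs was 0.17 (adjusted p = 0.87). Mest (-1.01, adjusted p = 0.0027), Col5a3 (-0.98, adjusted p = 0.017) and Postn (-0.91, adjusted p = 0.041) fell in contralateral muscle as well, at levels far below those of the injured leg.

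**Figure D5:**
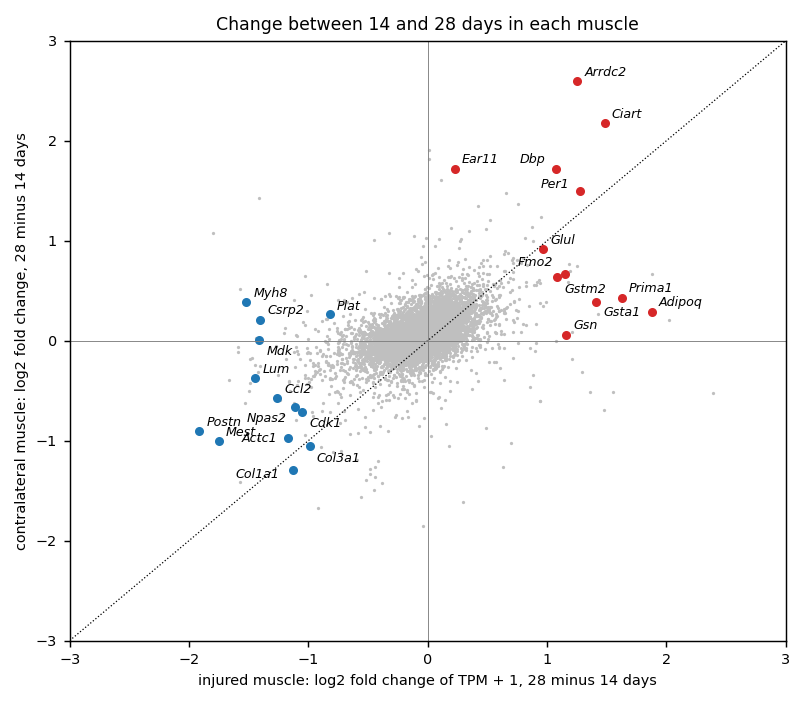
Log2 fold change of TPM + 1 (28 minus 14 days) of each gene tested in both fits, in injured muscle (horizontal axis) and in contralateral muscle (vertical axis), with the dotted line for equal change. Clock genes such as Ciart lie high in both, Gsn (1.16 and 0.06) and Mdk (-1.41 and 0.00) lie along the horizontal axis, and Col1a1 and Col3a1 lie near the dotted line.

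The test of the difference between the legs, over 24 muscles and 10600 genes, found 14 genes (0.132%) with a higher and 86 genes (0.811%) with a lower change in injured than in contralateral muscle. The median difference over all genes was -0.12, which became -0.01 with size factors, and the counts were then 91 and 222. Among genes that rose, the difference was 1.02 for Gsta1 (adjusted p = 0.0023), 1.10 for Gsn (adjusted p = 0.0093), 1.40 for Cntfr (adjusted p = 0.045) and 1.20 for Prima1 (adjusted p = 0.045). Among genes that fell, it was -1.61 for Csrp2, -1.41 for Mdk, the growth factor midkine, and -1.09 for Plat, with adjusted p of 0.016, 0.021 and 0.0023. Calml3, Anxa8, Tnn, Fbn2, Il1rl1 and Knstrn passed too, but they were under the filter in contralateral muscle and entered this test through the injured leg alone, so their differences restate the injured change (2.58 against 2.63 for Calml3) and are no separate result. The lowest adjusted p belonged to Rnf126, a ubiquitin ligase gene (difference -0.55, adjusted p = 0.00075). Galnt2, an enzyme of protein glycosylation, had a difference of -0.48 with the same adjusted p as Gsta1 and Plat. Rnf126 and Galnt2 rose in contralateral muscle (0.43 and 0.41), while in injured muscle their log2 fold changes were -0.13 and -0.06, the former with an adjusted p of 0.045 that was above 0.05 in most of the alternatives. The number of genes that passed depended on single muscles, with 28 genes without the unrepaired contralateral replicate 1 at 28 days and 1146 without the injured graft replicate 2 at 28 days. Gsta1, Gsn, Plat, Rnf126 and Galnt2 passed in each of the 24 fits that left out 1 muscle, with adjusted p of at most 0.0425, whereas Ndn passed in 8 and Cntfr and Prima1 in 7 of them. In the 8 rats with both muscles, with the rat as a fixed replicate block in limma, 0 genes passed and 1230 had an unadjusted p under 0.05. Gsta1 then had a difference of 1.07 and Plat of -1.09, each with an adjusted p of 0.0758.

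Unrepaired and grafted muscles were then taken apart, to see whether the change from 14 to 28 days depended on the graft. In unrepaired muscle 292 genes passed, of which 151 (1.43% of those tested) fell and the rest (1.34%) rose, and in grafted muscle 365 genes (3.46%) rose and 545 genes (5.16%) fell, with 4 muscles a day in each arm. With size factors 421 rose and 756 fell without repair, and 846 rose and 1094 fell with the graft. Leaving out 1 muscle of the arm gave 67 to 350 genes without repair and 339 to 2903 with the graft, the highest of these without replicate 2 at 28 days and the lowest without replicate 2 at 14 days. In the unrepaired arm every muscle but replicates 3 and 4 of 28 days gave under 100 genes when left out. The difference between the arms was tested as an interaction of day and repair with limma, and no gene passed. At an unadjusted p under 0.05 there were 111 genes, and the smallest adjusted p was 0.9999. Myh8 had a log2 fold change of -0.91 without repair and -2.13 with the graft, Myh3 of -0.92 and -1.96, and Gsn of 0.91 and 1.41, and for none of these was a difference between the arms shown. Fmo2 (1.05 and 1.25) and Col3a1 (-1.01 and -0.97) passed in both arms, as did Tnn, Dlk1 and Mmp14. Col1a1, Tnc, Postn, Myh8 and Myh3 passed with the graft only, with adjusted p without repair of 0.063, 0.072, 0.13, 0.26 and 0.34. Of 10 genes on the developmental sarcomere list 5 fell with the graft and 0 without repair. Of the 20 imprinted genes 2 were lower and 1 higher without repair and 10 were lower with the graft.

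Injured muscles of rats that ran, 4 at 28 days and 8 at 14 days, were not part of the comparison above. In them 964 genes (9.1%) rose and 3508 genes (33.1%) fell of 10598 tested, with a median of -0.18. With size factors the median was 0.01, and 2343 genes rose and 2130 fell. Without the unrepaired or the graft replicate 2 of the running rats at 28 days, 2980 and 2843 genes passed. Of the genes called lower in rats that did not run 94 fell in running rats as well (92.2% of those tested there), and of the 28 called higher 23 rose. Dlk1 had a log2 fold change of -3.53 in running rats, Tnc of -2.79, Mest of -2.28, Myh8 of -2.23 and Col1a1 of -1.48. Ciart (2.32), Adipoq (2.41), Calml3 (1.86), Gsta1 (1.07) and Gsn (1.00) rose. Cntfr differed, with -0.11 (adjusted p = 0.58) in running and 1.21 in non-running rats, and Myog had -1.82 (adjusted p = 0.00075) in running and -0.03 in non-running rats. These differences between running and non-running rats were not tested. Running rats of 28 days carry numbers 85 to 88 and those of 14 days again come from the later range, so they do not separate the day from the rat numbers.

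For reference, the levels of the same genes at the earlier days and in unoperated muscle show where day 28 lay. Dlk1 had a median of 5.59 TPM at 3 days (10 muscles), of 72.2 TPM at 7 days (16 muscles), of 81.5 TPM at 14 days and of 15.6 TPM at 28 days, against 0.20 TPM in 4 unoperated muscles, labelled sham, which are both legs of 2 rats. Col1a1 had medians of 2095, 3592, 1457 and 721 TPM at these days and of 18.9 TPM in unoperated muscle, so the level at 28 days was still far above it. Myh3 had medians of 41.1, 215, 151 and 57 TPM and of 2.48 TPM in unoperated muscle. Gsta1 had medians of 108.7, 49.3, 52.1 and 138.9 TPM and of 53.1 TPM in unoperated muscle, and Calml3 of 0.205, 0.36, 0.67 and 7.83 TPM and of 0.195 TPM. In all 5 genes every muscle of 28 days lay above the 4 unoperated muscles. Gsta1 at 14 days, at 44.3 to 60.6 TPM, overlapped with unoperated muscle, at 40.1 to 55 TPM. The earlier days were not tested here.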

How the data were processed

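RNA-seq libraries were made from total RNA of rat tibialis anterior muscle. The authors pseudo-aligned reads to the annotated rat genome with kallisto and deposited 1 table of TPM values per gene symbol, with DESeq also named in the submitters' processing notes and versions not given in the sources used here. The table holds 16181 symbols with complete values, and 1 incomplete row was left out. The symbols run in alphabetical order to Tubb3, so genes with later symbols, such as Vim and Vegfa, were not analysed here and are absent from the lists and from all genes tested. The study's methods give an average read depth but not that of each library, so no counting error can be given. Libraries with fewer than 7000 symbols above 1 TPM were dropped (13 in the series), 9 libraries whose labels conflict were left unassigned, and libraries of 1 muscle were averaged.

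Genes with a mean above 1 TPM in at least 1 group of day and repair were fitted with limma 3.58.1 (R 4.3.3, statmod 1.5.0) on log2(TPM + 1) with an intensity trend and repair as covariate, and p-values were adjusted over all tested genes (Benjamini-Hochberg). The same model gave the contralateral, running, arm, interaction and injured-minus-contralateral comparisons. Figures and counts used Python 3.11.15 with numpy 2.4.6, pandas 2.3.3 and matplotlib 3.10.9. The fit was tested on simulated data. Muscles are taken as separate animals within a day and injury, per the labels' rat numbers, except that the 4 unoperated muscles come from 2 rats. In the injured-minus-contralateral comparison the rat pairs the 2 legs: over 8 rats the residuals of both muscles had a mean correlation of 0.0161 (-0.157 to 0.326), against -0.00222 between different rats of a day.

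Named genes were up to 12 highest and 12 lowest called genes without overlap between the days (symbols of the LOC, RGD, Mir, Snor, AABR, AC and Rn kinds were only counted), up to 4 members of each gene list with the lowest adjusted p, 17 genes named by the study or an earlier account, and up to 3 genes with the lowest adjusted p in each further comparison. Members of lists that did not pass, the imprinted genes, the microRNA entries, the glutathione transferases, Arrdc2, Fbp2, Glul, Rn5-8s and Rn7sl1 were described after their values were seen. The comparison and its lists were chosen with earlier results of these data known. Alternatives were another pseudocount, other filters, size factors by the median of ratios, other covariates and models, a replicate block by rat, and leaving out each muscle. Leaving out muscles in the arms and in the comparison of legs was added after seeing the data. Sequences came from RefSeq tables of the GRCr8 build.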

Additional observations from a re-analysis of the deposited data

Results flagged for a closer look

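Among 220 groups of 8 injured muscles (110 genes on 2 days), 19 held 1 muscle far from the other 7. These were past the 95% critical value of Dixon for the gap over the range, taken on log2(TPM + 1). For independent groups of normal values chance gives about 1 in 20. The 110 genes were measured in the same muscles, so these groups are not independent. Of these, 11 had the same muscle on top, the graft muscle of replicate 2 at 14 days. There Aspn was at 598.2 TPM against 190.5 to 320.7 in the others, Mfap4 at 785.1, Cthrc1 at 300.4 against 95.7 to 156, Csrp2 at 92.35, Thbs2 at 79.74, Lox at 57.9 against 24.7 to 34.2, Galnt2 at 40.61, Col11a1 at 32.41 against 8.25 to 13.4, P4ha3 at 26.13, Ndn at 9.05 and Fbn2 at 7.78 TPM. Most of these are matrix genes. Without this muscle all but 1 of 109 single-gene results kept their direction and their side of the threshold, and the exception was Rnf126.

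At 28 days the graft muscle of replicate 2 was highest in Trim63 (396.5 TPM against 213.7 to 281.6), Cd74 (388.2 TPM), Peg3 (37.75 TPM), Galnt2 (37.38 TPM) and Pax7 (5.62 TPM against 1.79 to 2.68). The graft muscle of replicate 1 at 28 days was lowest in Igf2 (98.63 TPM against 160.1 to 231.6) and Nes (8.27 TPM against 18.1 to 30.2). Myoc was highest in the unrepaired replicate 1 at 14 days, at 39.91 TPM against 20.5 to 28.1.

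The change from 14 to 28 days differed between injured and contralateral muscle in 17 named genes. Of these, Calml3, Anxa8, Tnn, Fbn2, Il1rl1 and Knstrn were under the filter in contralateral muscle, so that their difference was set by the injured change alone. On the log2 scale, as injured minus contralateral with limma's adjusted p, it was higher in injured muscle for Calml3 (2.578, 0.016), Anxa8 (1.874, 0.0093), Cntfr (1.395, 0.045), Prima1 (1.198, 0.045), Gsn (1.098, 0.0093) and Gsta1 (1.019, 0.0023). It was lower in injured muscle for Tnn (-2.57, 0.040), Csrp2 (-1.611, 0.016), Ear11 (-1.495, 0.028), Fbn2 (-1.416, 0.022), Mdk (-1.414, 0.021), Il1rl1 (-1.351, 0.0088), Plat (-1.093, 0.0023), Ndn (-0.7001, 0.048), Knstrn (-0.6416, 0.015), Rnf126 (-0.5547, 0.00075) and Galnt2 (-0.4765, 0.0023). In the 8 rats with both muscles and the rat as a fixed block none of the 17 passed, with the lowest adjusted p at 0.0758.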

How the results depend on the processing

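The number of injured genes with adjusted p under 0.05 stayed within 1.5 times its value under each alternative run, from 1826 in 1 model of all muscles to 3945 with size factors (1905 higher, 2040 lower), and leaving out 1 muscle gave 2073 to 3688. Called genes numbered 261 with a pseudocount of 0.1 TPM (46 higher, 215 lower) and 53 with library complexity as covariate (35 higher, 18 lower), and 91 to 162 when 1 muscle was left out. With size factors the unrepaired arm had 1177 genes, the graft arm 1940, contralateral muscle 897, the difference between the legs 313 and running rats 4473. Leaving out 1 muscle gave 67 to 350 genes in the unrepaired arm, 339 to 2903 in the graft arm, 653 to 1200 in contralateral muscle, 28 to 1146 for the difference between the legs and 2843 to 4925 in running rats. The interaction of day and repair stayed at 0 genes under its 3 alternatives. The causes were not tested.

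No paired analysis was possible because no rat was measured on both days, for the comparison of the days within a leg. For the difference between the legs, the rat as a random replicate block in limma gave 97 genes and as a fixed replicate block in the 8 rats with both muscles 0 genes (1230 at an unadjusted p under 0.05). Among 109 single-gene results library complexity ended the call for 10 and made it for 2, and 1 model of all muscles ended it for 8, among them H19 (adjusted p = 0.12) and Trim63 (adjusted p = 0.28). No single-gene result changed direction while passing. The read depth of each library is not given, so low genes such as Knstrn have no stated counting error, and 4 contralateral muscles a day limit the comparison of the legs.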
